A study of Mus musculus with 16 samples.

Results

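The neuronal pentraxins, the C1q-like proteins and the cerebellins are 3 families of secreted proteins that organize synapses. The genes described here were Nptx1, Nptx2, Nptxr, C1ql1, C1ql2, C1ql3, Cbln1, Cbln2 and Cbln4. They were chosen by name, and all 9 were found among the 48397 gene symbols of each count table and had enough reads to be tested. The list was selected on these same samples, with results of the group comparisons already known, so the group differences given below describe the genes and are not independent evidence. The differences between replicate numbers were not part of that choice and were tested.

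RNA was sequenced from primary cultures of hippocampal neurons of wild type CD1 mouse pups (P0 to P2), with 4 libraries in each of 4 groups. The cultures received conditioned medium of immortalized astrocytes, concentrated 10-fold, at 10 and 13 days in vitro (DIV), and RNA was taken at 17 DIV. The astrocyte lines were homozygous for human apoE2, apoE3 or apoE4, and the control medium came from Apoe-/- astrocytes, so every group, the control included, was exposed to astrocyte products other than apoE. All cultures had cytosine arabinoside at 3 DIV, an agent that kills dividing cells. The neurons themselves carried mouse Apoe in all groups, and each medium came from an immortalized line rather than from fresh astrocytes.

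Nptx1 and Nptx2 are released by axons and gather AMPA-type glutamate receptors on the facing membrane, and Nptxr is the membrane-anchored pentraxin that assembles with them. Nptx2, also known as Narp, was first described as a gene that neuronal activity induces. C1q-like proteins bind the adhesion receptor Adgrb3 (BAI3), and C1ql2 and C1ql3 are known from the mossy fibers of dentate granule neurons, where they hold kainate receptors at the synapse. Cerebellins tie neurexins of the axon terminal to receptors of the facing membrane such as Grid1, and Cbln1 is best known from the parallel fibers of the cerebellum.

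The members of each family are paralogs that are counted apart only where their sequences differ. Coding sequence is shown for the stretch of 60 bases in which the genes shown for each family were most alike, read 5′ to 3′ from GENCODE M21 transcripts on GRCm38, with the positions that differ among them in capitals. Cbln2 is not shown. In the pentraxins 42 of the 60 positions were identical, on the minus strand at chr11:119543189-119543248, the plus strand of chr5:144555410-144555469 and the minus strand of chr15:79790273-79790332.
Nptx1: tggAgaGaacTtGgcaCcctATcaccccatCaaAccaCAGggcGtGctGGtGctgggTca
Nptx2: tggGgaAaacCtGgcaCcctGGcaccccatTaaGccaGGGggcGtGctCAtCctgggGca
Nptxr: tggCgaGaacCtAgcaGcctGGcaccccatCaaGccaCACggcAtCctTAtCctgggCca
In the C1q-like genes 49 of the 60 positions were identical, in the minus strand of chr11:102945986-102946045, the plus strand of chr1:120341621-120341680 and the minus strand of chr2:13010381-13010440.
C1ql1: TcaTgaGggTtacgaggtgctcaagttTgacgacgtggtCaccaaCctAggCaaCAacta
C1ql2: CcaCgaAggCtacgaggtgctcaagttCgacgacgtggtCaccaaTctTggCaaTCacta
C1ql3: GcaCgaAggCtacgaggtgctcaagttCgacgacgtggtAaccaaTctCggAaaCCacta
Between Cbln1 and Cbln4 52 of the 60 positions were identical, in the minus strands of chr8:87472118-87472177 and chr2:172042167-172042226.
Cbln1: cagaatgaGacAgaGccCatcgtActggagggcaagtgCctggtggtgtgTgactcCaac
Cbln4: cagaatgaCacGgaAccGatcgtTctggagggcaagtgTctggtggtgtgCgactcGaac
Over the whole aligned coding sequence, identity ran from 61.1% between Nptx1 and Nptxr to 74.1% between C1ql1 and C1ql3, and Cbln1 was 72.2% identical to Cbln2 and 68.7% to Cbln4. The longest run of identical bases in an aligned pair was 38, between C1ql2 and C1ql3, and no stretch of 50 bases was shared by any pair within a family.

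The libraries held between 14087723 and 34248172 reads on genes, and between 38.4% and 73.7% of the reads fell on no single gene. The cultures were labelled as neurons, and the neuronal markers (Rbfox3, Map2, Tubb3, Snap25, Syp, Syt1) summed to between 2635 and 6569 CPM (reads scaled to the library's gene reads times its TMM factor, which evens out differences in composition). The 8 astrocyte markers summed to between 1307 and 6574 CPM, and Gfap had reads in all 16 libraries, at 189 to 3446 CPM, so the cultures held astrocyte RNA too. Microglial markers summed to at most 19.6 CPM.

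The levels spanned a wide range. Divided by the length of each gene's exons, and averaged over the 16 libraries, the level was 97.3 ± 48.2 CPM per kb for Nptxr, 36.8 ± 31.0 for Nptx2 and 36.3 ± 25.5 for Nptx1 (SD, n = 16). C1ql3 followed at 18.8 ± 4.63 and C1ql2 at 13.2 ± 4.53 CPM per kb. The cerebellins and C1ql1 were far lower, at 1.34 ± 0.356 CPM per kb for Cbln2, 0.837 ± 0.753 for Cbln1, 0.743 ± 0.502 for C1ql1 and 0.449 ± 0.436 for Cbln4. Nptxr lay above Nptx2 in 16 of 16 libraries and C1ql2 above Cbln2 in 16 of 16. Nptx2 lay above Nptx1 in only 8 of 16 and Cbln1 above C1ql1 in 7 of 16, so these neighbours in the order did not differ beyond their spread. C1ql3 lay above C1ql2 in 15 of 16 libraries, Cbln2 above Cbln1 in 13, Nptx1 above C1ql3 in 11 and C1ql1 above Cbln4 in 11.

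**Figure D1:**
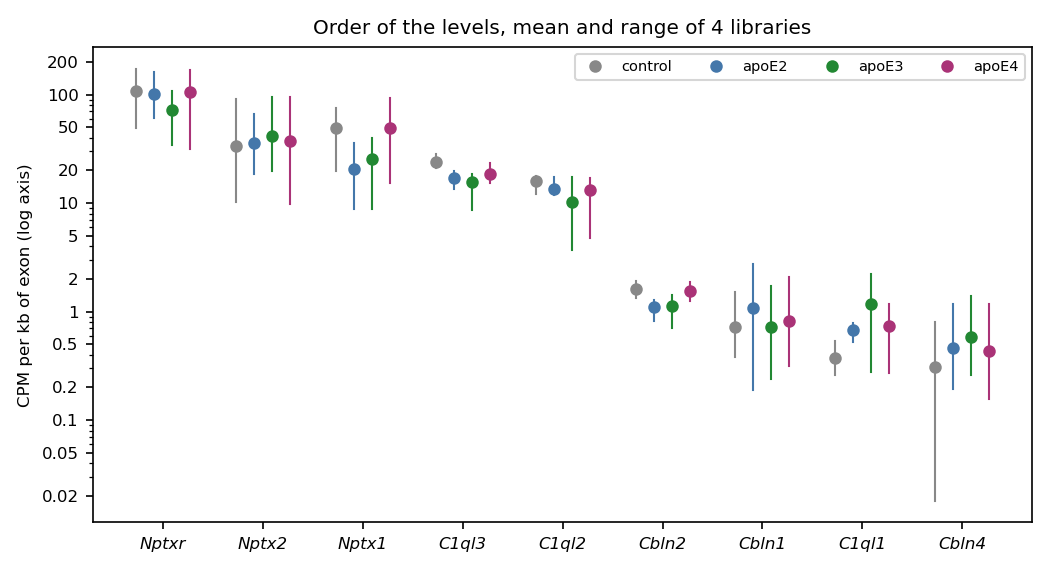
Level of each gene in CPM per kb of exon (log axis), with the mean of each group as a point and the range of its 4 libraries as a line. The order runs from Nptxr (97.3 CPM per kb over all libraries) to Cbln4 (0.449), with a gap between C1ql2 (13.2) and Cbln2 (1.34).

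The 3 lowest genes rested on few reads. C1ql1 had 10 to 50 reads in a library, Cbln4 1 to 121 and Cbln1 15 to 222, against 2693 to 27232 for Nptxr. Of the relatives that the list leaves out, Cbln3, the cerebellin of cerebellar granule cells, had 143 reads over all libraries. C1ql4 had 5 reads over all libraries and was not tested.

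Against the control medium none of the 9 genes passed an adjusted p of 0.05 in any of the 3 comparisons by edgeR's quasi-likelihood test with 1 coefficient per group, and DESeq2 called none either (0.17%, 0.352% and 0.534% of all genes called). By edgeR the shares of all 17038 tested genes that passed were 0% for apoE2, 0.00587% for apoE3 and 0.194% for apoE4. An unadjusted p under 0.05 was found for 2 of the 9 genes under apoE2 (C1ql3, Cbln2), for 2 under apoE3 (C1ql1, C1ql3) and for 0 under apoE4, against 2.79%, 6.43% and 3.3% of all genes. The comparisons between isoforms gave 0 of 9 as well, where 0.147% of all genes passed the adjusted p for apoE4 against apoE3, 0.252% for apoE4 against apoE2 and 0% for apoE3 against apoE2. DESeq2 called none of the 9 in these either (0.405%, 0.957% and 0.0529% of all genes). At an unadjusted p under 0.05 they also gave 0 of 9, against 4.7%, 5.34% and 2.28% of all genes. The study's thresholds were an unadjusted p under 0.05 and a difference of 2-fold or more. Applied to edgeR's p and fold change, which are not the study's own test, this criterion counted 0 genes with apoE2, 1 with apoE3 (C1ql1, higher) and 0 with apoE4, against 0.722%, 1.96% and 1.15% of all genes.

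Libraries with the same replicate number tended to deviate together from their group means. Each was therefore also compared with the control of its own number by adding the number to the fit as a block. What libraries of the same number share is not given, so this pairing was inferred. In the blocked fit 1 of the 9 genes was called with apoE2 (Nptx1), 4 with apoE3 (Nptx1, Nptxr, C1ql1, C1ql3) and 0 with apoE4, against 1.73%, 11.7% and 3.3% of all genes. Without adjustment, 4, 7 and 2 of the 9 had a p under 0.05, against 13.3%, 27.5% and 16.6% of all genes. Between isoforms, Nptx1 was called for apoE4 against apoE3 and for apoE4 against apoE2, 1 gene in each, against 1.77% and 4.44% of all genes. For apoE3 against apoE2 edgeR called 0 genes against 1.31% of all genes (2 at an unadjusted p under 0.05, against 15.9%), and DESeq2 with the block called 1, Nptxr, against 4.72%. DESeq2 with the block called 6 of the 9 with apoE3, adding C1ql2 and Cbln2, and 2 with apoE2, adding Cbln2, against 15.8% and 4.61% of the genes to which it gave an adjusted p. It called none with apoE4 (6.12%), and Nptx1 for apoE4 against apoE3 (4.67%) and against apoE2 (8.07%). The p and fold criterion was met in the blocked fit by 1 gene with apoE2 (Nptx1), 2 with apoE3 (Nptx1, C1ql1) and 0 with apoE4, against 1.56%, 4.77% and 2.5% of all genes. All these comparisons with control share the same 4 control libraries.

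**Figure D2:**
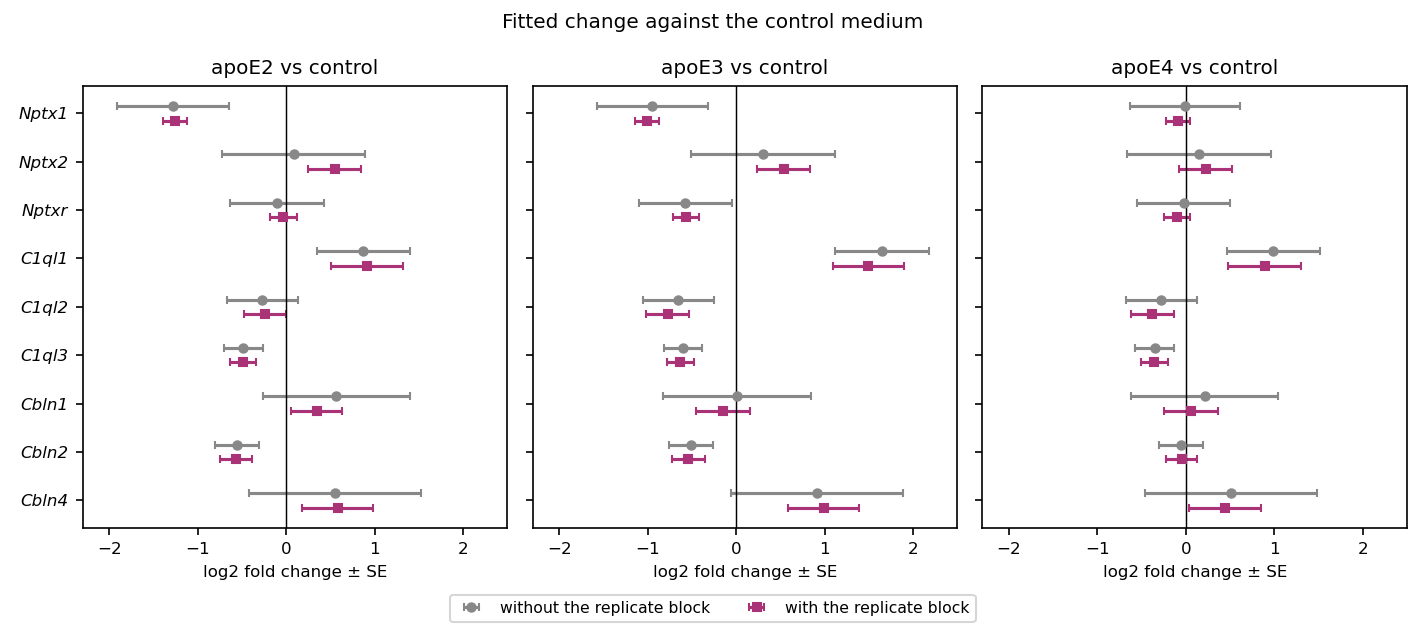
Log2 fold change of each gene against control with its standard error, without the replicate number in the fit (grey circles) and with it (purple squares). Nptx1 lay at -1.26 with apoE2 and -1.01 with apoE3 in the blocked fit and near 0 with apoE4 (-0.09), and the blocked errors were the smaller ones for every gene.

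Nptx1 (chr11:119538719-119547753, minus strand) was lower with apoE2 and apoE3 and near control with apoE4. In the control libraries with replicate numbers 1 to 4 it stood at 170.5, 370.2, 393 and 103 CPM, and with apoE2 at 75.2, 118, 188 and 46.2 CPM. With apoE3 it stood at 74.9, 208, 207 and 46.5 CPM, and with apoE4 at 179.9, 281, 488 and 79.3 CPM. The groups overlapped, because libraries 2 and 3 were high and library 4 was low in every group. Within each number, however, apoE2 reached 0.319 to 0.477 of the control level and apoE3 0.440 to 0.562, so Nptx1 was lower in 4 of 4 pairs with both. With apoE4 it was lower in 2 pairs and higher in 2, at 0.758 to 1.24 of control.

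On the log2 scale the fitted difference of Nptx1 from control was -1.28 ± 0.63 (SE) with apoE2 and -0.95 ± 0.63 with apoE3 without the block (adjusted p = 1 and 0.806). With the block it was -1.26 ± 0.14 (adjusted p = 0.000774) and -1.01 ± 0.14 (adjusted p = 0.000559). With apoE4 it was -0.09 ± 0.13 in the blocked fit (adjusted p = 0.796). Nptx1 was 0.92 ± 0.14 log2 units higher with apoE4 than with apoE3 in the blocked fit (adjusted p = 0.00265, 4 of 4 pairs) and 1.17 ± 0.14 higher than with apoE2 (adjusted p = 0.000246, 4 of 4 pairs). Without the block these differences were 0.94 ± 0.63 (adjusted p = 1.00) and 1.27 ± 0.63 (adjusted p = 0.98). Leaving out any 1 library kept Nptx1 called in the blocked fit for apoE2 and for apoE3 against control, with log2 differences from -1.36 to -1.15 and from -1.17 to -0.93. The difference between apoE4 and apoE3 was no longer called when all 4 libraries of replicate number 1, or all 4 of number 3, were left out (adjusted p up to 0.0748). In bulk RNA, fewer cells that express a gene and less of its RNA per cell cannot be told apart.

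**Figure D3:**
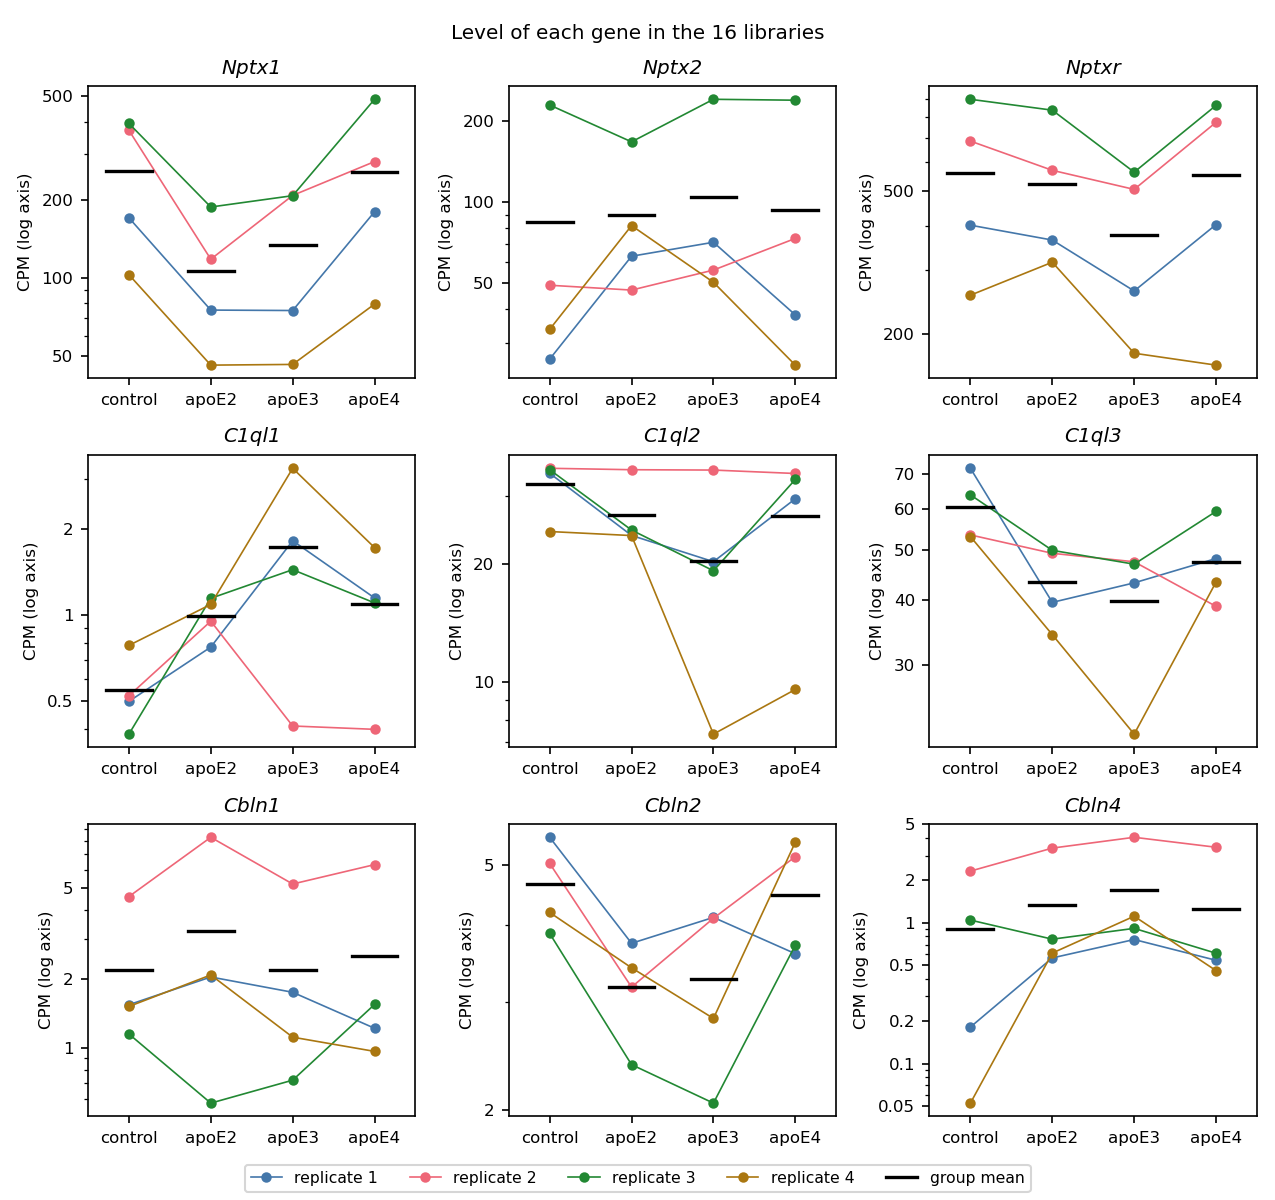
Level of each gene in the 16 libraries in CPM (log axis), 1 panel per gene, with 1 colour per replicate number, a line joining libraries of the same number and a black bar at each group mean. Nptx1 dips with apoE2 and apoE3 in all 4 numbers, while Nptx2 is highest in number 3 (168 to 241 CPM) and Cbln1 and Cbln4 in number 2 in every group.

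Nptx2 (chr5:144545902-144557478, plus strand) differed little in its group means. In control it stood at 26.2, 49.2, 229.9 and 33.7 CPM, with apoE2 at 63.1, 47.2, 168 and 82.0, with apoE3 at 71.1, 56.0, 241 and 50.5, and with apoE4 at 38.2, 73.4, 239 and 24.9 CPM. Library 3 was the highest of each group by far and all groups overlapped. The fitted log2 differences from control were 0.09 ± 0.81, 0.31 ± 0.81 and 0.15 ± 0.81 (SE) for apoE2, apoE3 and apoE4, and 0.55 ± 0.30, 0.54 ± 0.30 and 0.22 ± 0.30 in the blocked fit. The unblocked values rested on control library 3: without it, they were 1.31, 1.53 and 1.37, none of them called. In the blocked fit, leaving out 1 library moved the values between 0.15 and 0.80 with apoE2 and between 0.34 and 0.75 with apoE3. With apoE4 the blocked range was -0.05 to 0.46. Nptx2 was higher with apoE3 than with control in 4 of 4 pairs, by 0.07 to 1.44 log2 units.

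Nptxr (chr15:79786351-79804766, minus strand), the most abundant of the 9, was lower with apoE3. It stood at 401, 687, 899 and 256 CPM in control, and at 263, 504, 563 and 177 CPM with apoE3. With apoE2 it stood at 365, 570.0, 838 and 316 CPM, and with apoE4 at 403, 775, 864 and 164 CPM. The ranges overlapped in all comparisons, and apoE3 was at 0.627 to 0.734 of control in the 4 pairs. The log2 difference with apoE3 was -0.57 ± 0.53 without the block (adjusted p = 0.815) and -0.57 ± 0.15 with it (adjusted p = 0.0259). With apoE2 the blocked value was -0.03 ± 0.15 and with apoE4 -0.10 ± 0.15, neither called. The call with apoE3 held in 10 of the 16 blocked fits that left out 1 library, and was lost without control library 1, 3 or 4 and without apoE3 library 1, 3 or 4 (adjusted p up to 0.0862). It was also lost without replicate number 1 or number 3 (adjusted p up to 0.161). Npcd lies on the same strand and shares 890 exonic bases with Nptxr, 17.2% of its exons, and had 0 reads in these libraries.

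Of the C1q-like genes, C1ql3 and C1ql2 were lower in all 4 pairs with each isoform, and C1ql1 was higher in most. C1ql3 (chr2:13003457-13011806, minus strand) stood at 71.8, 53.4, 63.8 and 53.0 CPM in control, at 39.6, 49.2, 49.9 and 34.3 with apoE2, and at 43.1, 47.4, 46.9 and 22.0 with apoE3. Both of these groups lay wholly below control, although the values of apoE3 came down to 22.0 CPM only in library 4. Full separation of 4 from 4 libraries gives the smallest exact permutation p, 0.0286 (adjusted p = 0.257 over 27 tests). The share of all genes that separate in this way was not counted. With apoE4 C1ql3 stood at 48.1, 38.9, 59.3 and 43.3 CPM, which overlapped control. Without the block, its log2 differences from control were -0.49 ± 0.22, -0.60 ± 0.22 and -0.35 ± 0.22 for apoE2, apoE3 and apoE4 (adjusted p = 1, 0.745 and 1.00).

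In the blocked fit the differences of C1ql3 were -0.49 ± 0.15 with apoE2 (adjusted p = 0.130), -0.63 ± 0.15 with apoE3 (adjusted p = 0.0166) and -0.36 ± 0.15 with apoE4 (adjusted p = 0.254). The call with apoE3 was lost in 3 of the 16 blocked fits that left out 1 library, those without control library 1 or 4 and without apoE3 library 4, and in 3 of the 4 that left out a replicate number (1, 3 or 4, adjusted p up to 0.128). On the other strand Gm37811 covers 61.0% of the exonic bases of C1ql3, and Pter ends 1 base from the end of C1ql3, facing it. Gm37824, also on the other strand, shares 80 exonic bases. Gm37811 had 180 reads over all libraries, Gm37824 1163 and Pter 39290, against 17546 for C1ql3. Gm37824 was called lower with apoE3 too in the blocked fit (-1.18 ± 0.32, adjusted p = 0.0303). Whether reads were counted by strand is not given in the sources used here.

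C1ql2 (chr1:120340582-120343174, plus strand) stood at 34.2, 35.3, 35.0 and 24.3 CPM in control and at 20.3, 34.9, 19.3 and 7.34 CPM with apoE3. With apoE2 it stood at 23.7, 35.0, 24.5 and 23.7 CPM and with apoE4 at 29.5, 34.2, 33.0 and 9.56 CPM. Library 2 barely differed between the 4 groups, from 34.2 to 35.3 CPM, and with apoE3 the other 3 libraries were at 0.593, 0.551 and 0.302 of their controls. With apoE4 library 4, at 0.394 of its control, was the low one. The blocked log2 differences were -0.24 ± 0.24, -0.77 ± 0.25 and -0.38 ± 0.24 with apoE2, apoE3 and apoE4 (adjusted p = 0.755, 0.0539 and 0.464). Leaving out 1 library moved them between -0.56 and -0.08, between -1.01 and -0.58, and between -0.53 and -0.17. C1ql2 with apoE3 was called in 4 of the 16 blocked fits that left out 1 library, in 2 of the 4 that left out a replicate number (2 or 4), and by DESeq2 with the block (adjusted p = 0.0132).

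C1ql1 (chr11:102939264-102946688, minus strand), which in the forebrain is known from oligodendrocyte precursors, went the other way at a low level. It stood at 0.50, 0.523, 0.384 and 0.785 CPM in control, at 0.774, 0.954, 1.15 and 1.09 with apoE2, at 1.83, 0.410, 1.45 and 3.28 with apoE3 and at 1.15, 0.399, 1.11 and 1.73 with apoE4. Library 2 was the low one with apoE3 and apoE4 and lay below its control in both. In the other 3 pairs apoE3 was at 3.66 to 4.18 times control. The log2 difference with apoE3 was 1.65 ± 0.53 without the block (adjusted p = 0.608) and 1.5 ± 0.40 with it (adjusted p = 0.0265). With apoE2 it was 0.91 ± 0.41 and with apoE4 0.89 ± 0.41 in the blocked fit, neither called. The call with apoE3 was lost in 6 of the 16 blocked fits that left out 1 library, those without control library 1, 3 or 4 and without apoE3 library 1, 3 or 4, and in 3 of the 4 that left out a replicate number (1, 3 or 4). It was lost too when only the 2 groups were fitted (adjusted p = 0.0591), and rests on 50 reads in control against 122 with apoE3.

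Markers of several cell types moved with some of these genes. In the blocked fit 7 of 8 astrocyte markers were called higher with apoE3 and 3 of 8 with apoE4, and none with apoE2, against 11.7%, 3.3% and 1.73% of all genes for apoE3, apoE4 and apoE2. No astrocyte marker was called without the block. The summed astrocyte markers were 2125, 1411, 2479 and 3159 CPM in control libraries 1 to 4, 4409, 1698, 3310 and 6574 CPM with apoE3 and 3484, 1570, 3605 and 5353 CPM with apoE4, above control in 4 of 4 pairs with both. Centred on the replicate number, the astrocyte sum ran against C1ql2 (r = -0.82 over the 16 libraries, which share groups), Nptxr (-0.70) and C1ql3 (-0.64). It ran with C1ql1 (0.74) and Cbln4 (0.61), while r was -0.20 for Nptx1, 0.18 for Nptx2, -0.21 for Cbln2 and -0.32 for Cbln1. Other sums ran as closely with C1ql2 and Nptxr. For these genes r was -0.87 and -0.82 with the oligodendrocyte lineage, 0.87 and 0.81 with excitatory neurons, and 0.78 and 0.71 with Cajal-Retzius cells. The astrocyte markers were highest in apoE3 library 4, where C1ql2 and C1ql3 were lowest and C1ql1 was highest. The excitatory neuron markers summed to 1605, 2142, 1996 and 967 CPM in control libraries 1 to 4 and to 1163, 2020, 1957 and 562 CPM with apoE3. With apoE4 they summed to 1650, 2096, 2279 and 577 CPM, and with apoE2 to between 1136 and 2428 CPM. Of the oligodendrocyte lineage markers 3 of 8 were called higher with apoE3 and 1 with apoE4. Of the 6 dentate granule markers 2 were called lower with apoE3 and 2 with apoE4, and of the 10 GABAergic markers 4 were called lower and 1 higher with apoE3 and none with apoE2 or apoE4, all in the blocked fit with the shares of all genes given above.

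The summed GABAergic markers were 604, 534, 394 and 591 CPM in control, 661, 438, 316 and 455 CPM with apoE2, 515, 476, 311 and 401 CPM with apoE3 and 594, 537, 392 and 620.4 CPM with apoE4. They were below control in 3 of 4 pairs with apoE2 and in 4 of 4 with apoE3, and close to it with apoE4. Centred on the replicate number, their r was 0.80 with Cbln2, 0.71 with Nptx1, 0.61 with C1ql3, -0.64 with C1ql1 and -0.56 with Cbln4. The 5 markers of dividing cells summed to little, but to more than control in 4 of 4 pairs with every isoform. Their sum was 9.63, 6.67, 10.4 and 17.3 CPM in control, 18.4 to 27.8 CPM with apoE2, 34.2, 40.0, 25.7 and 35.6 CPM with apoE3 and 20.2, 11.5, 12.9 and 28.8 CPM with apoE4. In the blocked fit 1 of the 5 was called higher with apoE2, 1 with apoE3 and 0 with apoE4. Centred on the replicate number, the sum ran against Nptx1 (r = -0.69), Nptxr (-0.65), Cbln2 (-0.62) and C1ql3 (-0.53), and with Cbln4 (0.58) and C1ql1 (0.56). The endothelial, mural and fibroblast markers reached 301 CPM in apoE3 library 4 and 264 CPM in apoE4 library 4, against 161 CPM in control library 4. The part of all these markers in the differences of the synapse organizers was not tested.

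**Figure D4:**
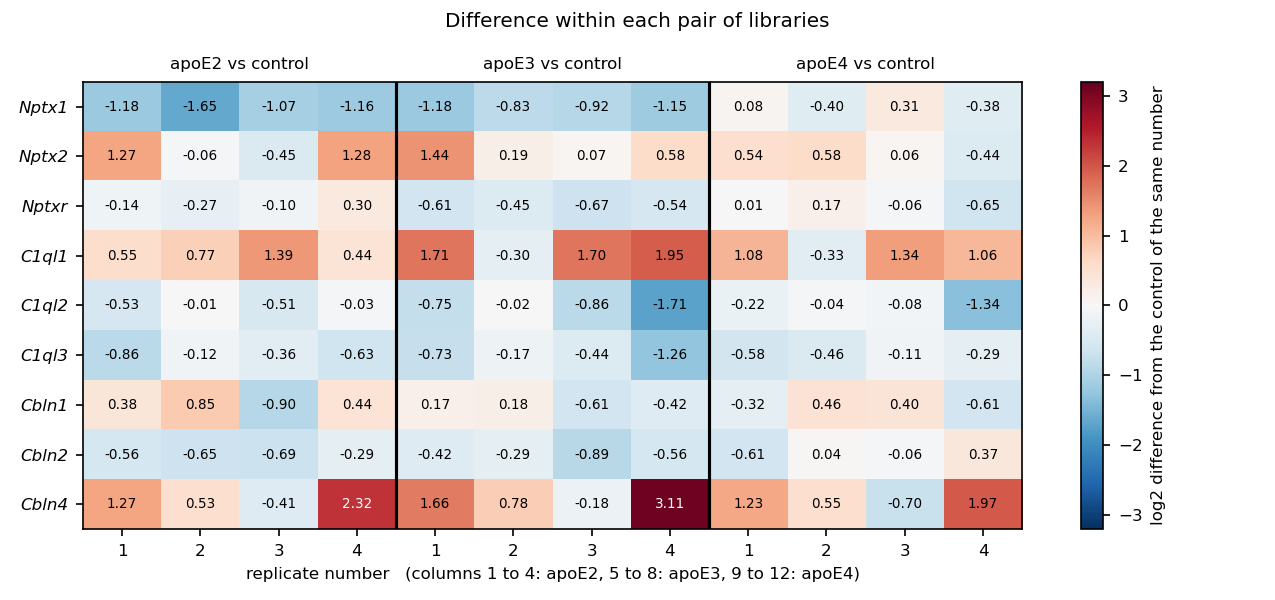
Difference in log2 CPM (with a prior count of 2, which shrinks the differences of genes with few reads) between each apoE library and the control library of the same replicate number, 4 pairs per isoform, blue for lower and red for higher. Nptx1 is lower in all 8 pairs with apoE2 and apoE3 and mixed with apoE4, and C1ql2 and C1ql3 are lower in all 12 pairs.

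Across the pairs, 5 of the 9 genes differed from control in the same direction in all 4 pairs with apoE2, 6 with apoE3 and 2 with apoE4, against 21.4%, 34.7% and 26.2% of all tested genes. With apoE2 these were Nptx1, C1ql2, C1ql3 and Cbln2, all lower, and C1ql1, higher. With apoE3 they were Nptx1, Nptxr, C1ql2, C1ql3 and Cbln2, all lower, and Nptx2, higher. With apoE4 they were C1ql2 and C1ql3, both lower.

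Of the cerebellins, Cbln2, which is made by neurons outside the cerebellum too, was lower in its means with apoE2 and apoE3 and near control with apoE4. Its gene lies on the plus strand of chr18:86711110-86718283. It stood at 5.54, 5.03, 3.87 and 4.19 CPM in control, at 3.73, 3.17, 2.37 and 3.4 CPM with apoE2 and at 4.11, 4.10, 2.05 and 2.82 CPM with apoE3. The apoE2 values lay wholly below control (exact permutation p = 0.0286, adjusted p = 0.257), and the apoE3 values overlapped it. With apoE4 it stood at 3.59, 5.15, 3.70 and 5.44 CPM. The blocked log2 differences were -0.56 ± 0.18, -0.54 ± 0.18 and -0.05 ± 0.18 (adjusted p = 0.140, 0.0689 and 0.927), so edgeR called none, while DESeq2 with the block called Cbln2 lower with apoE2 (adjusted p = 0.0483) and with apoE3 (adjusted p = 0.0321).

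Cbln1 (chr8:87468405-87472609, minus strand) ranged from 0.574 to 8.32 CPM and Cbln4 (chr2:172036233-172043466, minus strand), which binds Neo1 and Dcc as well as neurexins, from 0.0523 to 4.05 CPM. Both were highest in library 2 of every group, at 4.58 to 8.32 CPM for Cbln1 and 2.33 to 4.05 CPM for Cbln4. The blocked log2 differences of Cbln1 from control were 0.34 ± 0.29, -0.15 ± 0.31 and 0.06 ± 0.30 with apoE2, apoE3 and apoE4. Leaving out 1 library moved them between 0.14 and 0.60, between -0.35 and -0.03, and between -0.21 and 0.23. The blocked differences of Cbln4 were 0.58 ± 0.40, 0.99 ± 0.40 and 0.44 ± 0.41, with adjusted p of 0.593, 0.123 and 0.632. Leaving out 1 library moved the value with apoE3 between 0.71 and 1.54, and it was called without control library 3 (adjusted p = 0.0288). The control of number 4 held a single read of Cbln4, so the difference within that pair, 3.11 units of log2 CPM with apoE3, rests on it.

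All 9 genes differed between replicate numbers, tested with the group in the fit, at adjusted p from 3.3e-08 for Nptx1 to 0.0486 for Cbln2, against 63.8% of all tested genes. The number took 86.4% of the variance of log2 CPM in Cbln1, 85.5% in Nptxr, 80.9% in Nptx2, 71.9% in Cbln4 and 68.4% in Nptx1, beside a median of 56.1% over all genes. The share was 53.4% in C1ql2, 36.6% in C1ql1 and 32.4% in both C1ql3 and Cbln2. The group took 44.1% in Cbln2, 40.1% in C1ql3, 33.5% in C1ql1, 29.0% in Nptx1 and 21.5% in C1ql2, beside a median of 14.4%. It took 14.3% in Cbln4, 8.42% in Nptxr, 4.86% in Nptx2 and 1.51% in Cbln1. Once number and group were taken out, only 2.65% of the variance of Nptx1 was left.

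**Figure D5:**
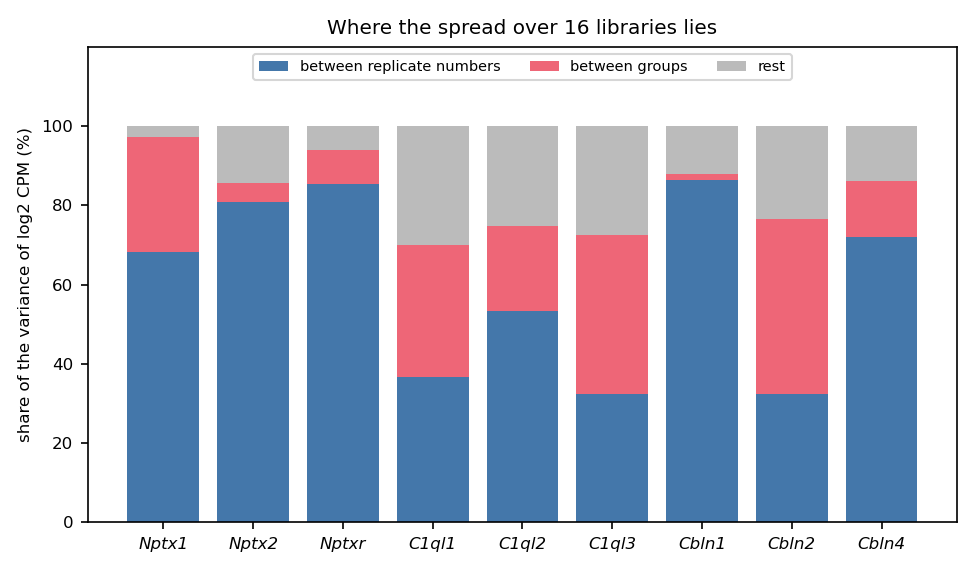
Share of the variance of log2 CPM over the 16 libraries that lies between replicate numbers (blue), between groups (red) and in the rest (grey), in percent. Cbln1 and Nptxr vary mostly with the number (86.4% and 85.5%), and Nptx1 has the smallest rest (2.65%).

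The means of all 3 pentraxins had the same order, number 3 highest, then 2, 1 and 4, with different gaps. Nptxr averaged 358, 634, 791 and 228 CPM in numbers 1 to 4 (SD 65.6, 121, 154 and 71.6, n = 4 each) and Nptx1 125, 244, 319 and 68.7 CPM (SD 57.9, 107, 146 and 27.6). Nptx2 averaged 49.6, 56.5, 219.6 and 47.8 CPM (SD 21, 11.9, 35.0 and 25.2), so for Nptx2 number 3 stood out and the ranges of the other 3 overlapped. The activity-regulated genes summed to 979 to 1409 CPM in number 3 and to 362 to 609 CPM in the other numbers, and the neuronal markers to 3698 to 4225 CPM in number 1, 5496 to 5958 CPM in number 2, 5726 to 6569 CPM in number 3 and 2635 to 4030 CPM in number 4. Numbers 2 and 3 were thus close in the neuronal markers and far apart in Nptx2. The part of neuronal activity or of the share of neurons in this pattern was not tested.

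Of 17 listed receptors and partners of these proteins, all tested, none was called without the block in any comparison. At the p and fold criterion none was counted against control. In the blocked fit 3 of 17 were called lower with apoE3 and 0 higher. Of all 17038 tested genes 11.7% were called there, 1354 higher and 636 lower. None of the 17 was called with apoE2 or apoE4. The 3 were Grik2, a kainate receptor subunit, at -0.52 ± 0.11 (adjusted p = 0.00897), Adgrb2 at -0.47 ± 0.10 (adjusted p = 0.00911) and Adgrb1 at -0.48 ± 0.14 (adjusted p = 0.0325). The receptor of the C1q-like proteins, Adgrb3, was at -0.28 ± 0.09 (adjusted p = 0.0636) and Grid1 at -0.22 ± 0.11 (adjusted p = 0.232). The AMPA receptor subunit Gria4, which pentraxins bind on interneurons, was at 0.25 ± 0.09 (adjusted p = 0.0838). The median log2 difference of the list with apoE3 was -0.18 without the block, beside 0.02 over all genes.

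Of the other secreted synapse organizers, 17 of 18 were tested. In the blocked fit 3 were called higher with apoE3 (Thbs1, Thbs2, Sparc) and 3 lower (Lgi1, Lgi3, Reln), with log2 differences from -0.58 for Lgi1 to 1.17 for Thbs2, against 11.7% of all genes. None of the 17 was called without the block. Thrombospondins and Sparc are made by glia and other supporting cells, and Lgi1 and Reln by neurons. With apoE2 2 were called higher (Sparcl1, Sparc) and 1 lower (Wnt7a, -1.0 ± 0.20), and with apoE4 1 was called higher (Gpc4, 0.61 ± 0.14), against 1.73% and 3.3% of all genes. The distant relative Ptx3, a long pentraxin of the innate immune response, was 1.13 ± 0.32 higher with apoE3 in the blocked fit (adjusted p = 0.0315, and 0.767 without the block). Of the 12 activity-regulated genes 4 were called with apoE3 in the blocked fit, where 11.7% of all genes were, and none with apoE2 or apoE4. Arc, Egr3 and Npas4 were lower (-0.97 ± 0.17, -0.92 ± 0.21 and -0.95 ± 0.23, adjusted p = 0.00266, 0.0107 and 0.0154) and Junb was higher (0.31 ± 0.09, adjusted p = 0.0414). None of the 12 was called without the block.

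The genes most like each member over the 16 libraries were named by Pearson's r of log2 CPM, as a description. For Nptx1 they were Tbc1d22a (r = 0.971), Sirpa (0.955) and Tesc (0.954), for Nptx2 Rnf128 (0.921), Tmem132b (0.921) and Akirin1 (0.918), and for Nptxr Dmxl2 (0.980), Tmem151a (0.976) and Atrn (0.976). For C1ql1 they were BC067074 (0.913), Samd5 (0.910) and Map3k6 (0.896), for C1ql2 Gfra4 (0.958), Kcnd2 (0.955) and Srrm3 (0.955), and for C1ql3 Pter (0.933), Camk2n1 (0.912) and Adcy1 (0.893). The libraries share replicate numbers and cell makeup, which move many genes together.

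For Cbln1 the nearest genes were Crym (r = 0.908), Narf (0.903) and Krt222 (0.902), and for Cbln4 Tnn (0.879), Eno1 (0.874) and Gm32391 (0.868). For Cbln2 they were Dpf3 (0.893) and the interneuron markers Dlx1 (0.888) and Gad1 (0.851). With each value centred on its replicate number, the nearest was E330009J07Rik for Nptx1 (0.968), C530050E15Rik for Nptx2 (0.888), Robo1 for Nptxr (0.942), Dab2 for C1ql1 (0.933) and Matk for C1ql2 (0.979). It was Gucy1b3 for C1ql3 (0.950), ahead of its neighbour Pter (0.946), Nfil3 for Cbln1 (0.927), Gm5607 for Cbln2 (0.914) and Gm17501 for Cbln4 (0.912). Pter, which adjoins C1ql3, was at -0.49 ± 0.18, -0.56 ± 0.18 and -0.25 ± 0.18 against control with apoE2, apoE3 and apoE4 in the blocked fit, none of them called.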

How the data were processed

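The authors made TruSeq libraries from Ribo-Zero depleted RNA, aligned the reads to mm10 (GRCm38) with STAR and used HTSeq for counting. The deposited values are raw counts per gene symbol for each of the 16 libraries. The annotation release and strand setting are not given in the sources used here. The methods describe the 4 libraries of a group as independent cultures. The members and all gene lists were chosen with earlier results of these data known.

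Rows that name no gene were left out. Genes were kept by filterByExpr (minimum count 10), leaving 17038, scaled by TMM and fitted with edgeR 4.0.16 (quasi-likelihood test, R 4.3.3, 16 libraries, 1 coefficient per group) with Benjamini-Hochberg adjustment over all tested genes, and called at an adjusted p under 0.05. CPM uses the TMM-scaled gene total, and log2 CPM a prior count of 2. The depth of 14087723 to 34248172 gene reads gives counting error only, which is wide for genes of a few reads. No 2 libraries of a group agreed within sampling noise (lowest chi-square per degree of freedom 42.2 over 24 pairs).

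Replicate numbers come from the sample titles. Correlations of deviations from the group means ran from 0.362 to 0.831 between libraries of the same number and from -0.736 to 0.569 between different numbers. These ranges overlap, and deviations cancel within a group, which lowers the values between different numbers. The titles do not say what libraries of the same number share, so the pairing was inferred. Blocked values are printed beside the unblocked ones. The fits were tested on simulated data, with changes larger than those fitted for the members and replicate effects shared by all groups. The simulation thus built in the pairing and cannot show how the fits handle smaller changes. Alternatives were DESeq2 1.42.0, other scalings and filters, fits of the 2 groups compared, exact permutation tests, a prior count of 0.5, and leaving out each library. The exact permutation tests against control called none of the members (lowest adjusted p = 0.257). Named genes were the 9 members, Cbln3 and C1ql4, the called genes of the lists, and the 3 genes most like each member. Adgrb3, Grid1, Gria4, Gfap and the genes overlapping or adjoining members were named after their values were seen. Coding sequences were aligned with MAFFT 7.526. Gene positions are those of GENCODE M21 on GRCm38.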

Additional observations from a re-analysis of the deposited data

Results flagged for a closer look

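Of 36 sets of 4 libraries (9 genes in 4 groups), 10 held a library that stood apart from the other 3 by Dixon's test, where chance gives about 1 in 20. The same count was not made over all genes, of which 63.8% differed between replicate numbers. For Nptx2 these were control library 3 (229.9 CPM) and apoE3 library 3 (241 CPM). For Cbln1 they were control library 2 (4.58 CPM) and apoE4 library 2 (6.32 CPM), and for Cbln4 library 2 with apoE2 (3.4 CPM), apoE3 (4.05 CPM) and apoE4 (3.45 CPM). The other 3 were C1ql2 in control library 4 (24.3 CPM, low), C1ql2 in apoE2 library 2 (35.0 CPM, high) and C1ql3 in apoE3 library 4 (22.0 CPM, low). The 7 values of Nptx2, Cbln1 and Cbln4 fell on the replicate number that was the highest for that gene in every group.

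Nptx1 differed between isoforms in the blocked fit, by 0.92 log2 units for apoE4 against apoE3 and by 1.17 for apoE4 against apoE2, higher with apoE4 in 4 of 4 pairs in both.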

How the results depend on the processing

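The replicate number as a block moved the count of called genes from 0 to 1 with apoE2, 0 to 4 with apoE3, and 0 to 1 for apoE4 against apoE3 and against apoE2, and that at the p and fold criterion from 0 to 1 with apoE2 and 1 to 2 with apoE3. It changed no other count of called genes and no other count at the criterion against control. The criterion gave 1 gene with apoE2 without the low-count filter, by DESeq2 and with only the 2 groups compared, and 2 genes with apoE2 and with apoE3 with no minimum fold change. Leaving out 1 library gave 0 to 1 gene at the criterion with apoE2, 1 to 2 with apoE3 and 0 to 1 with apoE4, and 0 called genes in each of the 6 unblocked comparisons. The libraries behind these changes were control 4, apoE2 3 and apoE4 4 for apoE2, apoE3 2 for apoE3 and apoE4 2 for apoE4.

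In alternatives to the blocked fit, chosen after seeing the data, leaving out a library or a replicate number gave 1 to 2 called genes with apoE2, 1 to 5 with apoE3, 0 with apoE4, 0 to 2 for apoE4 against apoE3, 1 for apoE4 against apoE2 and 0 to 1 for apoE3 against apoE2. With apoE3 only Nptx1 was called without control library 1 or 4, apoE3 library 4, replicate number 1 or replicate number 3. Nptx1 was not called for apoE4 against apoE3 without number 1 or number 3. DESeq2 with the block called 2 genes with apoE2, 6 with apoE3 (C1ql2 and Cbln2 added) and 1 for apoE3 against apoE2. The blocked fit of only the 2 groups called 3 genes with apoE3 (C1ql1 lost) and 1 with apoE4 (C1ql3 gained). The causes were not tested.

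Of 2553 recomputed log2 differences, 2550 moved by less than the unblocked spread within groups. The other 3 were those of Nptx2 without control library 3. That spread holds the differences between replicate numbers, and a lost call was not counted as a move. The count therefore cannot tell how stable the blocked calls were. C1ql1 and Cbln4 had as few as 10 reads and 1 read in a library, so their small differences were not detectable at this depth.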
